A study of Homo sapiens with 2 samples.

Results

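The cells described here are the epithelial-like cells that scored highest for NPY, NDNF, TNFSF15, PCDH9 and CAPN6 in a culture of HES2 taken through a differentiation towards sinoatrial node-like pacemaker cells (SANLPC). HES2 is a line of human embryonic stem cells. There was 1 culture and no comparison group, genotype or treatment beyond this differentiation, and the labels give no day of harvest. Dissociated cells were labelled with a barcoded antibody to human CD34 (TotalSeq A0054), sorted for live singlets with the DNA dye DAPI, and captured in droplets with the 10x Genomics 3' v3 chemistry. An RNA library and an antibody-tag library were made from the same cells. Of 14829 barcodes, 11211 had at least 1000 detected genes, at most 25% mitochondrial UMIs (unique molecular identifiers, the counted molecules) and at most 35000 RNA UMIs. Cells were taken as epithelial-like when TNNT2 (cardiac troponin T) and COL1A1 (a collagen of mesenchymal cells) were each below 1000 CPM (counts scaled to a fixed total of UMIs) and VTCN1, GATA3, CLDN4 and WNT6 summed to at least 5 UMIs, which held for 4046 cells. Each of these was scored by the mean, over the 5 genes, of the natural log of 1 plus the count per 10000 UMIs. The highest 15%, 607 cells, are called high-scoring here, and the other 3439 epithelial-like cells are what they are set against.

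NPY encodes neuropeptide Y, a secreted peptide of neurons and neuroendocrine cells, and NDNF a secreted neurotrophic glycoprotein. TNFSF15 encodes the cytokine TL1A, whose receptor is TNFRSF25, PCDH9 a protocadherin of the cell surface, and CAPN6 a calpain without protease activity that binds microtubules. Simple epithelia are held together by E-cadherin and claudin junctions and carry keratins 8 and 18, and GATA3 is a transcription factor of several epithelia, including those of placenta and skin. VTCN1 encodes an immune checkpoint ligand, CLDN4 a tight junction protein and WNT6 a secreted signal.

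In the RefSeq annotation of GRCh38.p14 all 5 score genes are protein-coding. NPY (ENSG00000122585) lies on chromosome 7 from 24284190 to 24291862 and NDNF (ENSG00000173376) on chromosome 4 from 121035613 to 121072535. TNFSF15 (ENSG00000181634) lies on chromosome 9 from 114784635 to 114806039, PCDH9 (ENSG00000184226) on chromosome 13 from 66302834 to 67230336, and CAPN6 (ENSG00000077274) on chromosome X from 111245099 to 111270483. Reads were counted near the 3' ends of transcripts, so the counts do not tell isoforms or transcription starts apart. The RefSeq promoter table held 4 of the 5 genes, without NDNF. The 250 bases upstream of the listed start are shown for NPY, the gene that weighed most in the score, and for TNFSF15, the gene that was still past 1.5-fold in the chosen cells when it was left out of the score. Capitals mark matches to an AP-2 motif (GCCNNNGGC) in NPY and to a GATA motif (AGATAA) in TNFSF15, searched on both strands. The listed TNFSF15 start is inside the span of the gene.
NPY: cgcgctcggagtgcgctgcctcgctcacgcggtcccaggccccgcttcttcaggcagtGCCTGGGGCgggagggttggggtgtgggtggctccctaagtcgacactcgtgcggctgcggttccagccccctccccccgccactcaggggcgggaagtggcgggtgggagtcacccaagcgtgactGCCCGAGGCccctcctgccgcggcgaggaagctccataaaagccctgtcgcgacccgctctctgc
TNFSF15: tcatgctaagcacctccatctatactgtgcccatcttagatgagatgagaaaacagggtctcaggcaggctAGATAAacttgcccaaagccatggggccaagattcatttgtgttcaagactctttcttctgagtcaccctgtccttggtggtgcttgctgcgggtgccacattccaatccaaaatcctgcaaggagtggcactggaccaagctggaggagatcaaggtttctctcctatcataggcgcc
The NPY window is chr7:24283940-24284189 on the plus strand with 71.6% G and C, and the TNFSF15 window is chr9:114792531-114792780 on the minus strand with 50% G and C. The AP-2 motif began 192 and 65 bases before the NPY start and the GATA motif 179 bases before the TNFSF15 start. Over 35116 promoter windows of the same length, 19.8% held the AP-2 motif, 9.17% the GATA motif and 10.7% a TATAAA box. None of the 3 motifs was found in the windows of PCDH9 and CAPN6, and TATAAA was found in none of the 4 windows.

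The 5 genes chose the cells, so their levels are given as a description. NPY stood at 1538 CPM in the summed counts of the high-scoring cells and 378 CPM in those of the other epithelial-like cells. Its median was 20 UMIs per cell (quartiles 9 and 37, highest 208) in high-scoring cells and 1 UMI (quartiles 0 and 8, highest 152) in the others, so the groups overlapped. NDNF stood at 249 and 141 CPM in the high-scoring and the other cells, with medians of 4 and 2 UMIs. TNFSF15, the lowest of the 5, stood at 111 CPM in high-scoring cells and 29.1 CPM in the others, with medians of 1 and 0 UMIs. PCDH9 stood at 414 and 221 CPM in the same order, with medians of 6 and 3 UMIs, and CAPN6 at 212 and 118 CPM, with medians of 3 and 1 UMIs. The 5 genes were therefore also present in the epithelial-like cells outside the chosen 15%.

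**Figure D1:**
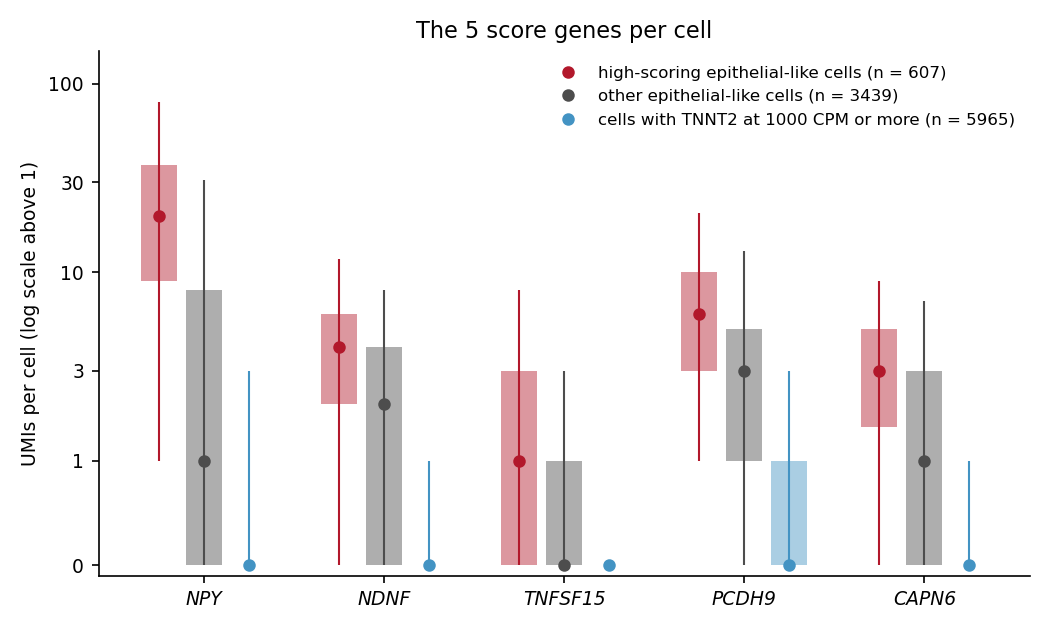
UMIs per cell of the 5 score genes (vertical axis, linear from 0 to 1 and log above 1) in high-scoring epithelial-like cells, other epithelial-like cells and cells with TNNT2 at 1000 CPM or more; points are medians, boxes quartiles and lines the 5th to 95th percentiles over cells. For every gene the lines of the high-scoring and the other epithelial-like cells overlap, and NPY has the widest gap between medians, 20 against 1 UMI.

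Within the chosen cells the 5 genes did not all occur together. All 5 were detected in 280 of the 607 high-scoring cells (46.1%), 4 in 275 cells, 3 in 49 and 2 in 3, while 298 of the other epithelial-like cells (8.67%) also had all 5. NPY was the largest of the 5 score terms in 453 high-scoring cells (74.6%), PCDH9 in 96, NDNF in 39, CAPN6 in 11 and TNFSF15 in 8. NPY supplied on average 36.8% of the score of a high-scoring cell and TNFSF15 8.19%. The 28 high-scoring cells with no NPY UMI had NDNF at 521 CPM and PCDH9 at 886 CPM, against 238 and 396 CPM in the 579 with NPY. The way the cells were chosen fixes part of that difference, since a cell without NPY reached the limit through the other genes.

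The limit cut through a continuous range. The lowest score inside was 1.13176 and the highest outside 1.13169, and 619 cells lay within 10% of the limit. The 50 cells just inside had NPY at 929 CPM, NDNF at 258 CPM and PCDH9 at 277 CPM. The 50 cells just outside had NPY at 797 CPM, NDNF at 191 CPM and PCDH9 at 357 CPM. Scores ran from 0, in 45 cells, to 1.91024, with a median of 1.27 in high-scoring cells and 0.707 in the others.

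After each cell was thinned to 5000 RNA UMIs, NPY was detected in 89.7% of high-scoring cells, 45.8% of other epithelial-like cells and 9.64% of the cells with TNNT2 at 1000 CPM or more, a cardiomyocyte class whose share serves as the background level. Before thinning these shares stood at 95.4%, 62.6% and 18.4%, and the median cell of the 3 groups had 17625, 17414 and 16100 RNA UMIs. Thinned shares for NDNF were 65.3% of high-scoring cells, 43.8% of the others and 4.05% of the cardiomyocyte class, and for TNFSF15 32.8%, 12.3% and 1.06% in the same groups. Unthinned, NDNF was detected in 93.1%, 72.9% and 9.32% of those groups and TNFSF15 in 60.3%, 27.8% and 3.49%. The thinning left out 4 high-scoring cells, 64 others and 416 of the cardiomyocyte class. For each of these genes the share in the other epithelial-like cells was above that in the cardiomyocyte class. That class is not a clean background. Before thinning VTCN1 was detected in 18.2% of its cells, and 11.6% of them were called doublets, barcodes that appear to hold more than a single cell.

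Whether the 5 genes mark the same cells was asked by leaving each out of the score in turn, choosing the highest 15% by the other 4, and reading the gene that had been left out. The intervals, exact at 95%, cover only counting error here and below, since cells of 1 culture are not replicates and no test between groups is possible. NPY was then lower in the chosen cells, at 404 CPM against 577 CPM in the rest, a ratio of 0.701 (0.678 to 0.723). TNFSF15 was higher, at 66.9 CPM against 37.0 CPM, a ratio of 1.81 (1.66 to 1.97). CAPN6 had a ratio of 1.22 (1.16 to 1.29), from 156 and 128 CPM in the chosen and the other cells. NDNF had a ratio of 1.11 (1.06 to 1.17), from 172 and 154 CPM, and PCDH9 a ratio of 1.07 (1.03 to 1.12), from 265 and 247 CPM. Only TNFSF15 of the 5 passed 1.5-fold when it took no part in the choice. Leaving out NPY also replaced most of the cells, as 285 of the 607 stayed (47.0%), against 468 to 494 when any other gene was left out.

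**Figure D2:**
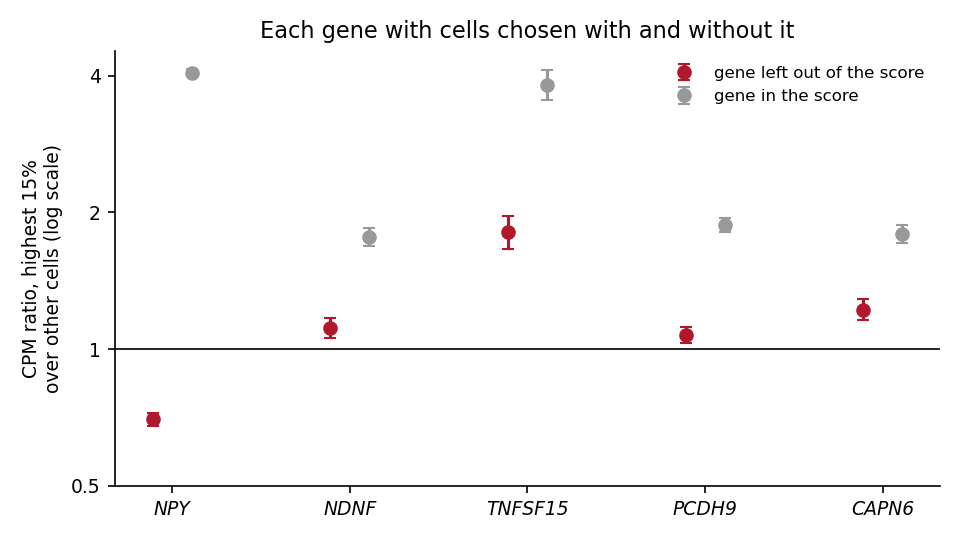
Ratio of CPM in the highest-scoring 15% of epithelial-like cells over the other epithelial-like cells (vertical axis, log scale) for each of the 5 genes, with cells chosen by the other 4 genes (red) or by all 5 (grey); bars are exact 95% counting intervals. With the gene left out, NPY falls below 1 at 0.701 and TNFSF15 alone stays above 1.5, at 1.81.

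The label of these cells names NPY and NDNF together, and the counts go against that pairing. Across the 4046 epithelial-like cells the Spearman correlation of NPY with NDNF was -0.14, and of NPY with PCDH9 -0.08. The highest of the 10 pairs was NDNF with PCDH9, at 0.25, followed by NDNF with TNFSF15 at 0.14 and NDNF with CAPN6 at 0.12. These values describe cells of 1 library that share its depth range, and sparse counts keep such correlations low. In the 15% of cells highest for NPY alone NDNF had a ratio of 0.745 to the other epithelial-like cells, and in the 15% highest for NDNF alone NPY had a ratio of 0.495. Of the 607 high-scoring cells, 297 were also among the highest 15% for NPY alone, 228 for TNFSF15, 199 for CAPN6, 182 for PCDH9 and 161 for NDNF. The high-scoring cells were thus the upper end of a sum of genes that are shared across the epithelial-like cells, and are named here by the score and not as a cell type.

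Set against the other epithelial-like cells, the high-scoring cells had few genes at raised levels. Of 3401 genes at 50 CPM or more in either sum, leaving out the 5 score genes and the 6 other genes of the rule, 3 were at least 1.5-fold higher (0.0882%) and 33 were lower by as much (0.97%). With a floor of 10 CPM, 18 of 9077 genes were higher (0.198%) and 149 lower (1.64%). At the floor of 50 CPM the median log2 ratio over all these genes was 0.01, and 96.1% lay within 1.25-fold. The genes that rose were IGFBP5, which encodes a secreted binding protein of insulin-like growth factors, L1TD1, an RNA-binding protein of pluripotent cells, and NXPH2, a secreted neurexophilin.

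IGFBP5 stood at 1097 CPM in high-scoring cells and 658 CPM in the others, a ratio of 1.67 (1.63 to 1.70). Its median per cell was 619 CPM (quartiles 129 and 1508) in high-scoring cells and 184 CPM (quartiles 35.0 and 794) in the others, so it varied widely within both groups and the quartile ranges overlapped. L1TD1 stood at 213 CPM in high-scoring cells and 137 CPM in the others, a ratio of 1.56 (1.49 to 1.64). NXPH2 stood at 57.2 and 37.1 CPM in the same groups, a ratio of 1.54 (1.41 to 1.69). In the cardiomyocyte class L1TD1 was at 12.9 CPM and IGFBP5 at 947 CPM. All 3 ratios stayed above 1 under each of 15 other choices of cells and settings, but none stayed past 1.5-fold under all of them. Among the 15, the floor of 10 CPM cannot change a ratio, and scaling by the median ratio hardly changes it. IGFBP5 was past the fold in 13 of the 15, L1TD1 in 11 and NXPH2 in 9. The IGFBP5 ratio was 1.45 when PCDH9 was left out of the score, the L1TD1 ratio was 1.41 when cells were thinned before scoring, and the NXPH2 ratio was 1.30 when NPY was left out.

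The next 12 genes by ratio lay between 1.36 and 1.49 and did not reach the fold. SEMA5A, an axon guidance semaphorin, stood at 141 CPM in high-scoring cells and 94.8 CPM in the others (1.49, 1.41 to 1.58). NTRK2, the receptor of brain-derived neurotrophic factor, stood at 82.4 and 55.6 CPM in the same groups (1.48, 1.38 to 1.60). CPE, carboxypeptidase E, which trims prohormones including that of neuropeptide Y, stood at 289 and 203 CPM (1.43, 1.37 to 1.48). THBS1, the matrix glycoprotein thrombospondin 1, stood at 419 CPM in high-scoring cells and 295 CPM in the others (1.42, 1.38 to 1.47). NSG1, an endosomal protein of neurons, had a ratio of 1.42, the fatty acid elongase ELOVL6 1.39, the heparan sulphate endosulphatase SULF2 1.38 and the cancer-testis antigen family member XAGE2 1.38. ARHGAP28 had a ratio of 1.37, the thyroid hormone receptor THRB 1.36, TCIM 1.36 and the guidance ligand SLIT2 1.36.

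Several of these 12 ratios were lower when NPY took no part in the choice. With cells chosen by the other 4 genes the ratio of CPE was 1.0, of SULF2 0.960, of XAGE2 1.07, of NTRK2 1.12 and of NSG1 1.16, whereas that of THRB was 1.55 and of TCIM 1.49. In the 15% of cells highest for NPY alone the ratio of CPE was 1.53, of SULF2 1.57, of XAGE2 1.58 and of NSG1 1.46, whereas that of NTRK2 was 1.12 and was higher with PCDH9 alone, at 1.26. In the cells highest for NPY alone SLIT3, a guidance ligand, stood at 90.7 CPM against 52.4 CPM in the rest, a ratio of 1.73 (1.61 to 1.86). THBS1 moved less, between 1.32 and 1.44 over 15 other choices of cells and settings.

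CXCL14, which encodes a chemokine of epithelia, was the gene with the lowest ratio. It stood at 349 CPM in high-scoring cells and 853 CPM in the others, a ratio of 0.409 (0.396 to 0.423). It was detected in 38.1% of high-scoring cells and 50.5% of the others, and its upper quartile was 106 CPM in high-scoring cells against 559 CPM in the others. CXCL14 was past the fold under all 15 of those choices, with ratios of 0.369 to 0.568. In clusters of the epithelial-like cells drawn without the score genes, its ratio was 0.237 to 0.520 within the 4 clusters with at least 50 high-scoring cells. It was also lower with each gene alone, with ratios from 0.492 for PCDH9 to 0.886 for NPY.

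The other genes outside mitosis among the 15 lowest ratios were TUBA1A, VIM, MAP1B, TAGLN, S100A6, AKAP12 and RUNX1. TUBA1A, an alpha tubulin, fell to 45.6 CPM in high-scoring cells, against 98.2 CPM in the others (0.465, 0.423 to 0.510). VIM, the intermediate filament protein vimentin, stood at 32.5 CPM, against 67.4 CPM in the others (0.482, 0.431 to 0.537). VIM was detected in 27.3% of high-scoring cells and 27.8% of the others, with upper quartiles of 37.6 and 40.3 CPM. Its highest cell was at 1826 CPM in high-scoring cells and 5173 CPM in the others. MAP1B, a microtubule-associated protein, fell to 32.5 CPM in high-scoring cells, against 63.5 CPM in the others (0.513, 0.458 to 0.572). TAGLN, the actin-binding protein transgelin, stood at 248 CPM in high-scoring cells and 454 CPM in the others (0.547, 0.525 to 0.569). S100A6, a calcium-binding protein, stood at 86.0 and 160 CPM in the same groups (0.536, 0.501 to 0.574), and AKAP12, a kinase anchoring protein, at 32.4 and 57.0 CPM (0.568, 0.507 to 0.634). TUBA1A, VIM, MAP1B, TAGLN, S100A6 and AKAP12 kept a ratio under 0.667 when cycling cells were left out. VIM was at 280 CPM in cluster 5, at 342 CPM in cluster 8 and at 25.1 to 49.0 CPM in the other clusters. Its ratio was 0.719, 0.853, 1.20 and 0.443 within clusters 1 to 4. That of AKAP12 was 0.528, 1.06, 1.02 and 0.490 within the same clusters. The TAGLN ratio was 0.688 when NDNF was left out of the score. RUNX1, a transcription factor of blood development that is also present in epithelia, stood at 28.0 CPM in high-scoring cells and 51.2 CPM in the others (0.547, 0.484 to 0.615), and had a ratio of 0.835 when NPY was left out.

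**Figure D3:**
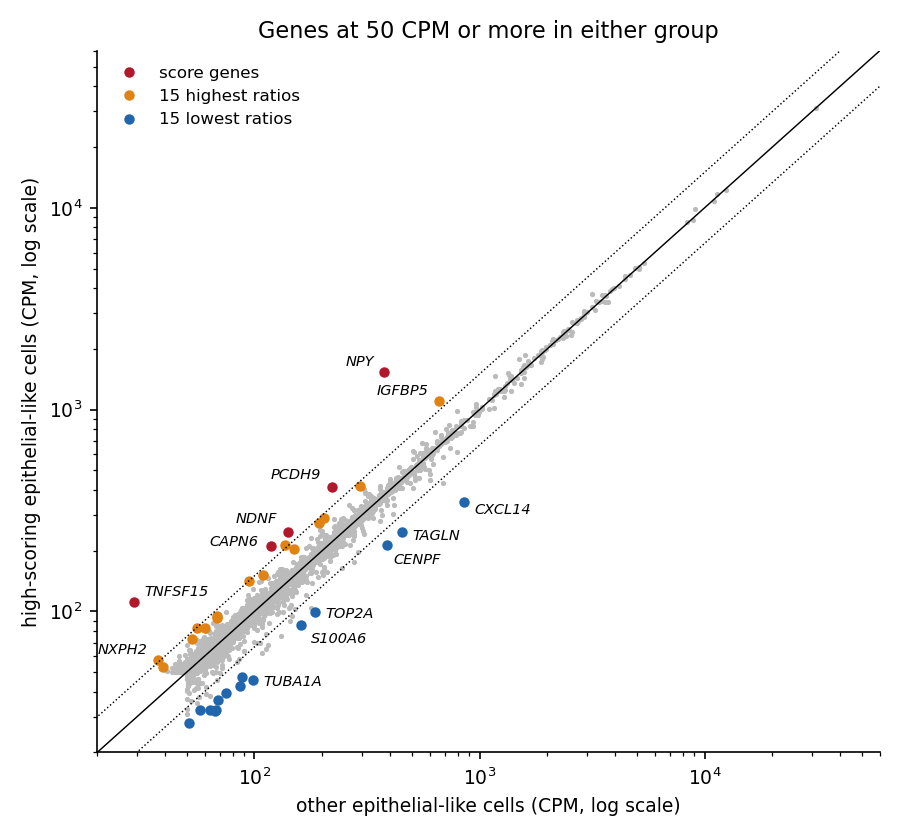
CPM of each gene at 50 CPM or more in either sum (grey), in high-scoring epithelial-like cells (vertical axis) against the other epithelial-like cells (horizontal axis), both on log scales; the solid line is equality and the dotted lines are 1.5-fold. The score genes (red) chose the cells, the 15 highest other ratios (orange) lie near the upper dotted line with IGFBP5 at 1097 against 658 CPM, and CXCL14 lies lowest for its level, at 349 against 853 CPM.

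Genes of mitosis were lower in high-scoring cells. Of 20 genes of a list for G2 and mitosis, 13 were measured and 8 fell, with a median log2 ratio of -0.77, beside 0.97% of all measured genes lower and an overall median of 0.01. CENPF, a kinetochore protein, stood at 214 CPM in high-scoring cells and 390 CPM in the others (0.549). TOP2A, a topoisomerase of dividing cells, stood at 99.8 and 186 CPM in the same groups (0.538), and UBE2C, a ubiquitin-conjugating enzyme of mitotic exit, at 47.4 and 87.6 CPM (0.541). The kinesin gene CENPE had a ratio of 0.526, and 3 further genes of the 15 lowest ratios are known from mitosis, DLGAP5 at 0.483, ASPM at 0.492 and HMMR at 0.528. Genes of S phase were not lower as a group, with 0 of 11 measured past the fold in either direction, a median log2 ratio of 0.03 and TYMS, thymidylate synthase, farthest from 1 at 0.824.

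Cells counted as cycling were also a smaller share of the high-scoring cells. At least 3 UMIs of MKI67, TOP2A and CDK1 were found in 127 high-scoring cells, 20.9% (17.8 to 24.4%), and in 985 of the others, 28.6% (27.1 to 30.2%). After thinning the shares were 14.6% and 20.5%. With those cells left out and the remaining high-scoring cells kept, CENPE had a ratio of 1.36, DLGAP5 1.30, HMMR 1.08, CENPF 1.01, UBE2C 1.0 and ASPM 0.850. TOP2A is not read here, as it chose the cycling cells. MKI67, TOP2A and CDK1 belong to the same mitotic list, so leaving cells out by them also takes out counts of the other mitotic genes. Whether the share of cycling cells accounts for the lower mitotic genes was not tested. With the cycling cells left out, 8 of 3360 measured genes were higher and 24 lower. The higher ones were IGFBP5, L1TD1, NXPH2, SEMA5A, NTRK2, COL2A1, GPC5 and TNC, and CXCL14, TUBA1A, VIM, S100A6, TAGLN, MAP1B, AKAP12 and RUNX1 were among the lower. The 5 score genes differed in this respect when taken alone. In the 15% of cells highest for PCDH9, UBE2C had a ratio of 0.302 (0.266 to 0.341) and CDKN1C, a cyclin-dependent kinase inhibitor, 1.68 (1.53 to 1.85). In the 15% highest for CAPN6, UBE2C had a ratio of 0.847, HMMR 0.884, CENPE 0.938 and DLGAP5 0.995.

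All epithelial-like cells were ordered from the lowest to the highest score in 10 bins of 404 or 405 cells each. Across these bins the levels of CXCL14, IGFBP5 and L1TD1 changed by degrees, whereas TAGLN and S100A6 fell most between bins 1 and 2. CXCL14 was at 1589 CPM in bin 1, 725 CPM in bin 5 and 376 CPM in bin 10. TAGLN was at 977 CPM in bin 1, 527 CPM in bin 2, 364 CPM in bin 5 and 228 CPM in bin 10. S100A6 was at 364, 166, 132 and 81.8 CPM in those bins. IGFBP5 was at 434 CPM in bin 1, 735 CPM in bin 5 and 1110 CPM in bin 10, and L1TD1 at 92.3, 147 and 221 CPM. L1TD1 was higher in each bin than in the bin before, whereas IGFBP5 was 861 CPM in bin 6 and 773 CPM in bin 7. The share of cycling cells did not change evenly. It was 28.9% in bin 1, 32.1% in bin 5, 27.7% in bin 7, 24.0% in bin 8, 25.2% in bin 9 and 18.6% in bin 10. Between bins 9 and 10 CENPF went from 311 to 167 CPM and TOP2A from 142 to 74.0 CPM. None of the 5 genes CXCL14, TAGLN, S100A6, IGFBP5 and L1TD1 had a gap that set the high-scoring cells apart, whereas the cycling share and these mitotic genes fell most at bin 10.

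**Figure D4:**
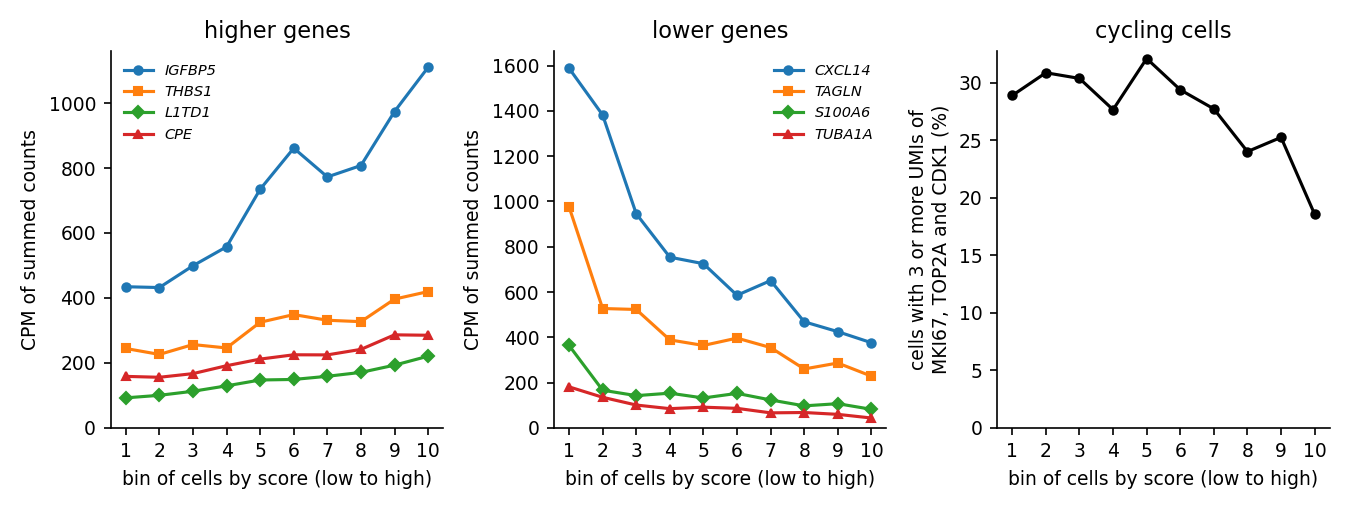
CPM of summed counts for 4 genes with high ratios (left), 4 with low ratios (middle) and the share of cells with at least 3 UMIs of MKI67, TOP2A and CDK1 (right), over 10 bins of the 4046 epithelial-like cells from the lowest to the highest score. CXCL14 is at 1589 CPM in bin 1 and 376 CPM in bin 10 with small reversals between, L1TD1 is at 92.3 and 221 CPM in the same bins, and the cycling share is lowest in bin 10, at 18.6%.

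Epithelial identity was shared by both groups. EPCAM, an epithelial adhesion molecule, stood at 769 CPM in high-scoring cells and 818 CPM in the others (0.940), and CDH1, E-cadherin, at 140 and 135 CPM (1.04). Keratin genes KRT8 and KRT18 stood at 3092 and 4006 CPM in high-scoring cells and at 2923 and 3940 CPM in the others. Over all measured genes 0.0882% were higher and 0.97% lower, so counts as small as those in this paragraph say nothing particular to a list. Of 18 measured genes of epithelial identity 0 rose and 1 fell, with a median log2 ratio of 0.02. The gene that fell was KRT7, a keratin of simple epithelia, at 75.9 CPM in high-scoring cells and 131 CPM in the others (0.579, 0.538 to 0.623). KRT7 was also the only one of 5 measured keratin genes past the fold, and KRT19 had a ratio of 1.13 and KRT17 1.22. Claudin genes gave 0 past the fold of 3 measured, with CLDN15 highest at 1.30. The genes that chose the epithelial-like cells had to be present in both groups, so their levels are only a description. VTCN1 stood at 591 CPM in high-scoring cells and 525 CPM in the others, and GATA3 at 203 and 191 CPM. Of 5 measured genes that led other subsets of the epithelial-like cells, the serine protease gene PRSS12 fell, to 94.4 CPM in high-scoring cells against 146 CPM in the others (0.645).

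For the lists that follow, about 0 genes past the fold is what the shares over all measured genes, 0.0882% higher and 0.97% lower, give for lists of this size, so the counts say nothing particular to a list. Of 10 measured genes of an amnion list 0 passed the fold, with a median log2 ratio of 0.06. The matrix protein gene TNC was farthest from 1 at 1.34, followed by IGFBP3 at 1.24 and GABRP, a GABA-A receptor subunit, at 1.19 (1785 CPM in high-scoring cells and 1505 CPM in the others). GCM1, a factor of syncytiotrophoblast, gave 0 counts in both groups, and of 3 measured trophoblast genes 0 passed the fold. Of 8 measured genes of surface ectoderm and stratified epithelium 0 passed, with a median of -0.07. The stratified epithelial factor TP63 gave 0 counts in high-scoring cells and 12 in the others, and KRT5 gave 0 and 2. None of the placode and otic list was measured. Matrix and basement membrane genes gave 0 of 15 past the fold, with a median of 0.04, and water and ion transport genes 0 of 8, with SLC7A2, an amino acid transporter, at 1.35.

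Partners and relatives of the 5 score genes were few among measured genes, and their counts stand beside the same shares over all genes. Of 16 genes for neuropeptide processing and NPY receptors CPE alone was measured, and 7 gave 0 counts in high-scoring cells. Among the 7 were the prohormone convertase genes PCSK1 and PCSK2 and the receptor genes NPY2R and NPY5R. The other epithelial-like cells had 5, 4, 1 and 0 counts of them, in that order. NPY1R stood at 0.185 CPM in high-scoring cells and 0.213 CPM in the others. TNFRSF25, the receptor of TL1A, stood at 2.13 CPM in both groups, and 0 of 3 measured genes of the TNF superfamily and NF-kB list passed the fold, with TNFRSF12A farthest from 1 at 0.891. Of 6 other protocadherin and cadherin genes measured, 0 passed the fold, with PCDH7 at 0.829 and PCDH11X at 1.18. Of 5 other calpain genes, 0 passed, with CAPN7 at 1.18. Of the neuronal list UCHL1 alone was measured, at 88.7 CPM in high-scoring cells and 96.8 CPM in the others. Below the floor, TUBB3, a neuronal tubulin gene, stood at 6.21 CPM in high-scoring cells and 20.4 CPM in the others (0.305, 0.235 to 0.390). STMN2 stood at 0.278 and 0.361 CPM in the same groups and ELAVL4 at 0 in both. Of 2 measured neural crest genes 0 passed, and SOX10 gave 0 counts in both groups.

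Signalling lists gave 0 genes past the fold, from 1 to 8 measured in each, near the shares of 0.0882% and 0.97% over all genes. WNT genes had 5 measured, with WNT7B at 0.737 and WNT5A at 1.23. BMP and TGF-beta genes had 8 measured, with TGFB2 at 0.689, ID3 at 0.819 and TGFBI at 1.18. FGFR2 was the only FGF gene measured, at 1.23, and CRABP1, a retinoic acid binding protein, was farthest from 1 among 3 measured retinoic acid genes, at 0.711. Of 2 measured NOTCH and hedgehog genes HES4 had a ratio of 0.888. Immediate early genes, which can rise on dissociation, had 10 measured and a median log2 ratio of 0.02. The lists for the integrated stress response, hypoxia and glycolysis, and interferon had 2, 5 and 2 measured, with medians of -0.03, 0.04 and -0.01.

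Among the markers of other cell types that were measured, L1TD1 alone passed the fold upwards and RUNX1 alone downwards. A list of 12 cardiomyocyte genes summed to 838 CPM in high-scoring cells and 963 CPM in the others, against 38312 CPM in the cardiomyocyte class, and 0 of 5 measured passed the fold. Of 5 measured fibroblast and mesenchymal genes 0 passed, with COL1A2 at 156 CPM in high-scoring cells and 200 CPM in the others (0.779) and FBLN1 at 1868 and 1600 CPM (1.17). That list summed to 5621 CPM in high-scoring cells and 5590 CPM in the others, with PDGFRA at 1.02 and 1.18 CPM. Epicardial and endoderm lists had 0 measured genes. WT1 stood at 0.185 CPM in high-scoring cells and 0.590 CPM in the others (0.314, 0.0367 to 1.22). LRRN4 stood at 49.2 and 36.2 CPM in the same groups (1.36, 1.24 to 1.5) and UPK1B at 11.8 and 7.28 CPM (1.62, 1.32 to 1.98). SOX17 gave 0 counts in high-scoring cells and 1 in the others. PECAM1 and CDH5 gave 0 counts in both groups. Of 9 pluripotency genes L1TD1 alone was measured, and POU5F1 stood at 0.464 CPM in high-scoring cells and 0.0983 CPM in the others. Doublets had been called by Scrublet in 3 high-scoring cells (0.494%) and 80 of the others (2.33%) and were kept, as the rule states no doublet filter.

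For CD34, the surface protein the antibody measured, each group's median lay inside the other's quartiles. The median was 37 tag UMIs (quartiles 28 and 50) in high-scoring cells and 39 (quartiles 29 and 53) in the others, against 80 (quartiles 43 and 247) in the cardiomyocyte class. CD34 RNA gave 1 count in high-scoring cells and 13 counts in the others, or 0.0927 and 0.213 CPM (0.435, 0.0102 to 2.90). Depth and RNA quality were alike, with medians of 17625 and 17414 RNA UMIs, 4788 and 4747 genes, and 5.83% and 5.82% mitochondrial UMIs in high-scoring cells and the others. The summed counts behind each CPM were 10783857 UMIs in high-scoring cells and 61016744 in the others.

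When the epithelial-like cells were clustered on RNA without the 5 score genes, the high-scoring cells were spread over all 8 clusters. Cluster 2 held 228 of them, 37.6% (33.7 to 41.5%), and 606 of the others, 17.6% (16.4 to 18.9%). Its leading genes were NOG, a secreted BMP antagonist, ARSJ, TMEM88 and CLIC3, and L1TD1 and XAGE2 were also among the first 10. NPY was highest there, at 881 CPM, as were TNFSF15 at 60.3 CPM and CAPN6 at 171 CPM, whereas NDNF and PCDH9 were highest in cluster 1, at 196 and 359 CPM. Cluster 1, led by PTH1R and CLDN3, held 26.2% of high-scoring cells and 33.8% of the others. Cluster 7, led by the mitotic genes PLK1 and KIF20A, held 2.47% of high-scoring cells and 6.54% of the others, and cluster 5, led by MMP9 and VIM, 7.08% and 10.7%. Cluster 4, led by the replication genes DTL and CDC6, held 11.2% of high-scoring cells and 10.2% of the others, and cluster 3, led by replication-dependent histone genes, 9.06% and 10.9%. High-scoring cells made up 27.3% of cluster 2 and 6.25% to 16.2% of each other cluster. Drawn on 1000 variable genes, the clustering gave 6 clusters, and a different cluster of 1700 cells, led by VIM, RAMP1 and C15orf48, held 58.3% of high-scoring cells and 39.1% of the others. Without called doublets, a cluster of 809 cells held the most, 39.7% of high-scoring cells and 17.0% of the others. VIM, ANKRD1, KRT17 and NOG led that cluster. At resolution 1, a cluster of 597 cells led by NOG and TMEM88 held 34.3% and 11.3%. The leading genes thus depended on how the clusters were drawn.

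**Figure D5:**
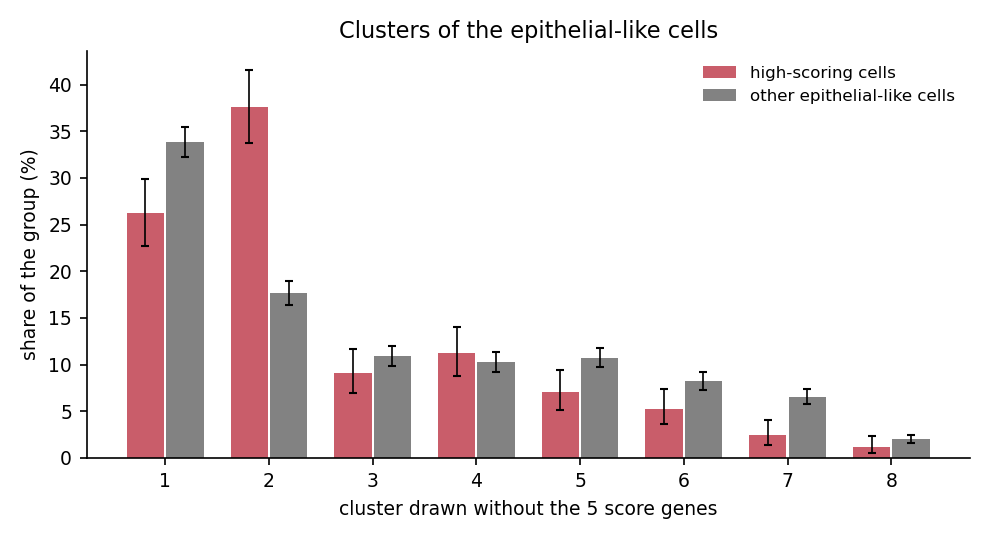
Share of high-scoring cells (red) and of the other epithelial-like cells (grey) in each of 8 clusters drawn without the 5 score genes (vertical axis, percent of the group); bars have exact 95% binomial intervals for counting error. Cluster 2 holds 37.6% of high-scoring cells and 17.6% of the others, and high-scoring cells occur in every cluster.

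Within clusters the rises and falls were partly kept. IGFBP5 had ratios of 1.99, 1.56, 1.42 and 2.06 within clusters 1 to 4, the clusters with at least 50 high-scoring cells, and L1TD1 1.40, 1.58, 1.35 and 1.38. TUBA1A was between 0.435 and 0.553 in all 4, and TAGLN between 0.399 and 0.702. NXPH2 was at 2.03 within cluster 1 and 0.985 within cluster 3. These ratios within clusters were computed after the clusters had been seen.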

How the data were processed

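The unit of the files is counts: whole-number UMI counts per gene, and for the CD34 antibody tag, were deposited by the authors as a matrix of 14829 barcodes, 36601 genes and 1 tag, made with Cell Ranger 6.1.2 per the file headers and on GRCh38 per the submitters' processing notes. No cell annotation was used. The filters and the score followed the rule given in the opening of the report. Counts were summed per group and scaled to CPM. Ratios have exact conditional intervals at 95%, shares exact Clopper-Pearson intervals, and both cover counting error only. Cells from 1 culture are not replicates, so no p-value was computed. Genes were measured at 50 CPM or more in the higher sum and called at 1.5-fold. The text names the 5 score genes, the 15 highest and 15 lowest ratios, leaving out mitochondrial and ribosomal protein genes and the genes of the rule, and for each of 33 gene lists up to 4 members farthest from 1 together with defining markers. SLIT3, CDKN1C, COL2A1 and GPC5 were chosen after their values were seen. Members and lists were chosen with earlier results of these data known. Clusters came from scanpy 1.11.5 (2000 variable genes without the score genes, 30 components, 15 neighbours, Leiden resolution 0.5). Doublets were called with Scrublet over the 12119 barcodes passing the gene and mitochondrial filters and were kept. The ratio and interval code was tested on simulated counts. The depth, sums and thinning to 5000 UMIs are given in the report. Promoter sequences are from RefSeq, GRCh38.p14.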

Additional observations from a re-analysis of the deposited data

How the results depend on the processing

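No paired analysis was possible because the series holds 1 culture with no replicate, and for the same reason no replicate could be left out. Counts near the fold moved most. In place of 3 higher genes there were 6 with the highest 10% of cells, 0 with the score taken after thinning, 9 without cycling cells, 6 without NPY in the score, 1 without CAPN6, 18 with a floor of 10 CPM (0.198% of 9077) and 6 with mean CPM over cells. In place of 33 lower genes there were 66 without NPY and 149 with the floor of 10 CPM (1.64%). In place of 12 list genes past the fold there were 21 without NPY and 31 with that floor. The ratio of NPY when left out, 0.701, was 0.772 with the highest 25% and 0.810 after thinning. The NDNF ratio of 1.11 was 1.05 with the highest 25%. The PCDH9 ratio of 1.07 was 1.01 both with the highest 25% and after thinning, and the CAPN6 ratio of 1.22 was 1.14 after thinning. The largest cluster share, 37.6%, was 58.3% with 1000 variable genes, in a different cluster of 1700 cells led by VIM. Without cycling cells, with the 15% chosen anew, ratios crossed 1 for DLGAP5 (1.32), CENPE (1.33), HMMR (1.11) and UBE2C (1.05). The SULF2 ratio of 1.38 was 0.960 without NPY. Some ratios crossed 1 within clusters, an alternative added after the data had been seen. DLGAP5 was at 1.02 in cluster 1, 1.19 in cluster 2 and 1.13 in cluster 4. In cluster 2 ASPM was at 1.76, CENPE at 1.87, UBE2C at 1.09 and AKAP12 at 1.06. In cluster 3 NXPH2 was at 0.985, VIM at 1.20 and AKAP12 at 1.02. All these genes were under 50 CPM in those clusters. DLGAP5 stood at only 2.31, 2.53 and 9.22 CPM over clusters 1, 2 and 4. Over cluster 2 ASPM stood at 4.13 CPM, CENPE at 5.36 CPM and UBE2C at 5.65 CPM, so these mitotic ratios rest on low levels. The cause was not tested. Over the alternative choices of cells other than those within clusters, the ratio of median CD34 tag (0.949) was 0.923 to 1.0. That of median RNA UMIs (1.01) was 0.976 to 1.05. Neither was computed within clusters. The intervals do not cover variation between cultures.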
